A study of Homo sapiens with 12 samples.

Results

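ERVL elements are remnants of an old group of endogenous retroviruses. Here they were followed by sequencing of the RNA that the J2 antibody, which binds double-stranded RNA, pulled out of NCI-H1944, a human cell line from a lung adenocarcinoma. A member was any region of the count table that carried exactly 1 repeat name, where that name belongs to the ERVL family and not to its ERVL-MaLR relatives. The rule looks at names alone and uses no read. It gave 44522 members among 5254113 regions, spread over 121 repeat names, and 20980 of them held at least 1 read in the 12 libraries. The 12 names that start with MLT2 had 7984 members, the 19 internal parts (names ending in -int, such as HERVL-int) had 11715, and the 90 other long terminal repeats (LTRs) had 24823.

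An intact retroviral insertion consists of an internal part with coding sequence between 2 LTRs, and the LTRs hold the promoter. HERVL-int is the internal part of the human element whose LTRs are named MLT2, and most copies in the genome are solitary LTRs left by recombination. In human and mouse embryos, ERVL LTRs are known to start transcription at the time the embryonic genome is switched on. In human embryos the factor DUX4 acts on them then. In other cells they are kept silent by chromatin repressors such as SETDB1, TRIM28 and DNA methylation. Copies that lie in introns or after gene ends are also copied whenever the gene is transcribed, and a pair of copies on opposite strands can fold or anneal into double-stranded RNA.

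The libraries come from 2 genotypes of the line, SCR, labelled as wild type, and IFNAR1sg, labelled as a knockout of IFNAR1, 1 of the chains through which cells sense type I interferons. The labels used here do not say whether IFNAR1sg is 1 clone or a pool. Cells of both genotypes received DMSO (the solvent control), MPS1i or IFNb. MPS1i is BAY-1217389, an inhibitor of the spindle checkpoint kinase MPS1, given at 100 nM for 48 h and then washed out for 24 h of further culture. IFNb is interferon beta at 5 ng/ml, present in those 24 h. Each of the 6 groups had 2 libraries, and nothing in the labels says that these came from separate cultures, so p-values measure the spread between these libraries, which may be technical. The input fraction was not analysed here, and a value is therefore the amount in the J2 fraction and cannot be split into more RNA and more pull-down. In bulk samples, fewer cells carrying a transcript and less of it per cell cannot be told apart either.

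The promoters of 4 genes are shown because ERVL regions whose values are given below lie in or just past the first pair of these genes (DDX60L and PLSCR1, both interferon-stimulated) and opposite the start of the second pair (HSPB8, a small heat shock protein, and ZBTB42, a zinc finger protein). Each line gives the 250 bases before the gene's start, 5′ to 3′ on the gene's strand, from RefSeq on GRCh38.p14. Capitals mark matches to GAAANNGAAA, the core of the element that interferon-activated factors bind.
DDX60L: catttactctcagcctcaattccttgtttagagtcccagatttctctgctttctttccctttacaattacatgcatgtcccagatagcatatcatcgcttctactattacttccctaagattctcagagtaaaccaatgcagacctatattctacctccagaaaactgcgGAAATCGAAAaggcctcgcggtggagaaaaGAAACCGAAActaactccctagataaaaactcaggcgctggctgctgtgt
PLSCR1: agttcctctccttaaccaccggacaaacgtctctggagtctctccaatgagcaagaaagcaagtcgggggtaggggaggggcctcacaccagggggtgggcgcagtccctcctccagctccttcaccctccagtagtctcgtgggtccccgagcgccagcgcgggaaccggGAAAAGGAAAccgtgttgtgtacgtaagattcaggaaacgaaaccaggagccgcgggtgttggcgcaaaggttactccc
HSPB8: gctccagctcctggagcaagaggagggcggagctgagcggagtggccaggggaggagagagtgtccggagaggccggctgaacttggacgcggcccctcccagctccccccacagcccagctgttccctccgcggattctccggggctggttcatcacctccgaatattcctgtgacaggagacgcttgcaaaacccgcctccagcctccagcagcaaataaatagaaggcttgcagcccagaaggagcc
ZBTB42: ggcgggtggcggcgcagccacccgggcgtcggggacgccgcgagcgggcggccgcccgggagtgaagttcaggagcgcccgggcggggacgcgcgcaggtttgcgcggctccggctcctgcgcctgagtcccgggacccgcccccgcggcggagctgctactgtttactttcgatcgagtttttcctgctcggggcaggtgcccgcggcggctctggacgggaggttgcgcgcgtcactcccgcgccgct
The windows are chr4:168480493-168480742 on the minus strand, chr3:146544608-146544857 on the minus strand (the farther upstream of 2 listed starts), chr12:119178681-119178930 on the plus strand and chr14:104800851-104801100 on the plus strand. The motif, searched on both strands, was found at 80 and 50 bases before the DDX60L start and at 79 bases before the PLSCR1 start, and not in the other pair. Of 35116 RefSeq promoter windows of this length, 1061 (3.02%) hold it. A second pattern of letters, TTCNNNGAA, which reads the same on both strands, was in none of the 4 windows and is in 2306 (6.57%) of all. A match is a description of the letters and not of binding. The HSPB8 and ZBTB42 windows fall inside 2 member regions on the opposite strand, LTR50 and MLT2E. A region's name can cover more than the element itself, so these letters may lie outside the element.

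Libraries held 3739443 to 7430687 reads. The SCR libraries given IFNb stood apart: 295367 and 296843 regions held a read there, against 566704 to 935974 in the other 10, and 49.6% and 47.9% of their reads lay in regions that share bases with an exon on their strand, against 33.2% to 39.7%. Replicates differed by more than sampling noise in every group (chi-square per degree of freedom 1.80 to 2.95). Levels are given as CPM, counts per 1e6 of a scaled library size. That size is the library's reads in regions deep enough to test, times a TMM scaling factor. The IFNAR1 gene sum, made of reads outside exons, was 5.67 and 6.39 CPM in SCR DMSO and 5.34 and 5.26 in IFNAR1sg DMSO. That sum checks nothing about the knockout, since an edited gene can still be transcribed. Of 72 tested interferon-stimulated genes, 69 rose with IFNb in SCR and 42 in IFNAR1sg (median log2 fold change 2.82 and 1.01), where 7.95% and 0.647% of all gene sums did. The rise was larger in SCR for 57 by the test of the difference, where 4.27% of all gene sums were higher. The libraries labelled IFNAR1sg thus still held higher levels of many of these genes after IFNb. The marker sums below also use only reads outside exons, in regions that lie in 1 gene, and are not expression levels. A marker given as at 0 had no such reads or no such region, and its exon reads were not counted. Of 10 lung epithelial markers, KRT19 and NKX2-1 were at 0, and the summed level was 96.3 to 160 CPM over the 12 libraries. Fibroblast markers summed to 2.90 to 4.50 CPM in SCR DMSO and 26.8 to 26.9 in SCR MPS1i, and in IFNAR1sg to 3.78 to 4.14 and 20.8 to 25.2, with COL1A2 at 0. Immune markers went from 0.581 to 1.33 up to 5.61 to 7.73 CPM with MPS1i in SCR and from 0.445 to 1.27 up to 4.91 to 7.24 in IFNAR1sg, with CD14, CD68, MS4A1 and NKG7 among those at 0. In the IFNb groups the fibroblast sum was 7.52 to 9.67 (SCR) and 5.05 to 6.29 CPM (IFNAR1sg), and the immune sum 1.13 to 1.49 and 0.680 to 1.26. The part of such reads in the MPS1i results was not tested.

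ERVL members held 307144 of 71207398 reads, which is 0.431%. These reads were concentrated. A single region, named MER68 and lying in the aldo-keto reductase gene AKR1C2, held 44.0% of them, and 47 members that share at least 1 base with an exon held 52.8%. Most of those 47 touch an exon by very little: 39 members sharing 1 or 2 bases accounted for 52.6%. Of the other members, 25149 were intergenic (22.9% of ERVL reads), 10791 intronic on the gene's strand (21.0%) and 8535 antisense to a gene (3.33%). Members were short, with a median of 145 bp and a range of 9 to 8972 bp, and the 348 longer than 1000 bp held 59.8% of the reads. The read depth allowed a test for 272 members, which held 74.2% of ERVL reads, with a median of 128 reads over all libraries. Of these, 143 were intronic, 92 intergenic, 22 exon-sharing and 15 antisense, and by name 45 were MLT2, 59 internal and 168 other LTRs. The 44250 untested members held 79111 reads, and 19000 of them had 1 to 9 reads each. A region that passed the read filter only because it is high in 1 group had to differ, so counts over the tested regions describe only those regions.

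Summed over members that share no exon base, ERVL RNA in the J2 fraction rose with MPS1i in both genotypes and fell with IFNb in SCR. The sum was 2300 and 2134 CPM in the SCR DMSO libraries, 2883 and 2797 with MPS1i, and 1801 and 1671 with IFNb. In IFNAR1sg it was 2365 and 2292 CPM with DMSO, 3302 and 2966 with MPS1i, and 2108 and 2275 with IFNb. The groups did not overlap for MPS1i in either genotype or for IFNb in SCR, and the IFNAR1sg IFNb libraries lay below both DMSO libraries by less. The log2 fold change was 0.36 ± 0.06 (SE) for MPS1i in SCR (adjusted p = 2e-05), 0.43 ± 0.06 in IFNAR1sg (4.3e-07), −0.35 ± 0.06 for IFNb in SCR (9.5e-06) and −0.09 ± 0.06 for IFNb in IFNAR1sg (0.53). The IFNb effect differed between genotypes by −0.27 ± 0.09 (adjusted p = 0.015), and the MPS1i effect by −0.07 (0.69). Both SCR comparisons share the SCR DMSO libraries. The direction of the IFNb change depends on the exon-sharing regions: with them in the sum it was 0.60 ± 0.06 in SCR, the MER68 region in AKR1C2 being the largest. The MPS1i change in IFNAR1sg was then 0.14 ± 0.06 and did not pass (adjusted p = 0.056), while that in SCR was 0.35 ± 0.06.

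Neighbouring repeat families moved in the same directions with MPS1i. In SCR and IFNAR1sg the log2 fold change was 0.37 and 0.53 for ERVL-MaLR, 0.57 and 0.56 for ERV1, 0.46 and 0.47 for ERVK and 0.25 and 0.32 for L1. Alu, short elements that are common in introns, went the other way in SCR (−0.24) and did not pass the test in IFNAR1sg (−0.14, adjusted p = 0.10). In SCR cells given IFNb, ERVL-MaLR (−0.40), L1 (−0.42) and Alu (−0.60) fell with ERVL, whereas ERV1 (−0.08, adjusted p = 0.23) and ERVK (−0.01, 0.90) did not pass the test. Differences between families were not tested.

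Within ERVL, the 3 kinds of element had different levels, and all were higher with MPS1i by unequal amounts. MLT2 stood at 353 and 327 CPM in SCR DMSO, 533 and 492 with MPS1i, and 337 and 336 with IFNb, and in IFNAR1sg at 347 and 317, 523 and 475, and 333 and 353. Internal parts stood at 590 and 564, 828 and 818, and 464 and 438 CPM in SCR, and at 639 and 584, 1002 and 892, and 563 and 589 in IFNAR1sg. Other LTRs stood at 1357 and 1244, 1521 and 1487, and 1000 and 897 CPM in SCR, and at 1379 and 1391, 1777 and 1599, and 1212 and 1333 in IFNAR1sg. In each kind, the MPS1i libraries lay above the DMSO libraries of the same genotype without overlap. The ratio of the group means was 1.51 for MLT2, 1.43 for internal parts and 1.16 for other LTRs in SCR, and 1.5, 1.55 and 1.22 in IFNAR1sg, and the differences between kinds were not tested. In SCR with IFNb, the internal parts and other LTRs lay below DMSO, and MLT2 lay within the DMSO range. Without the single MLT2D region past PLSCR1, MLT2 was 331 and 309 CPM in SCR DMSO and 261 and 263 with IFNb, so the MLT2 level with IFNb rests on 1 region.

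**Figure D1:**
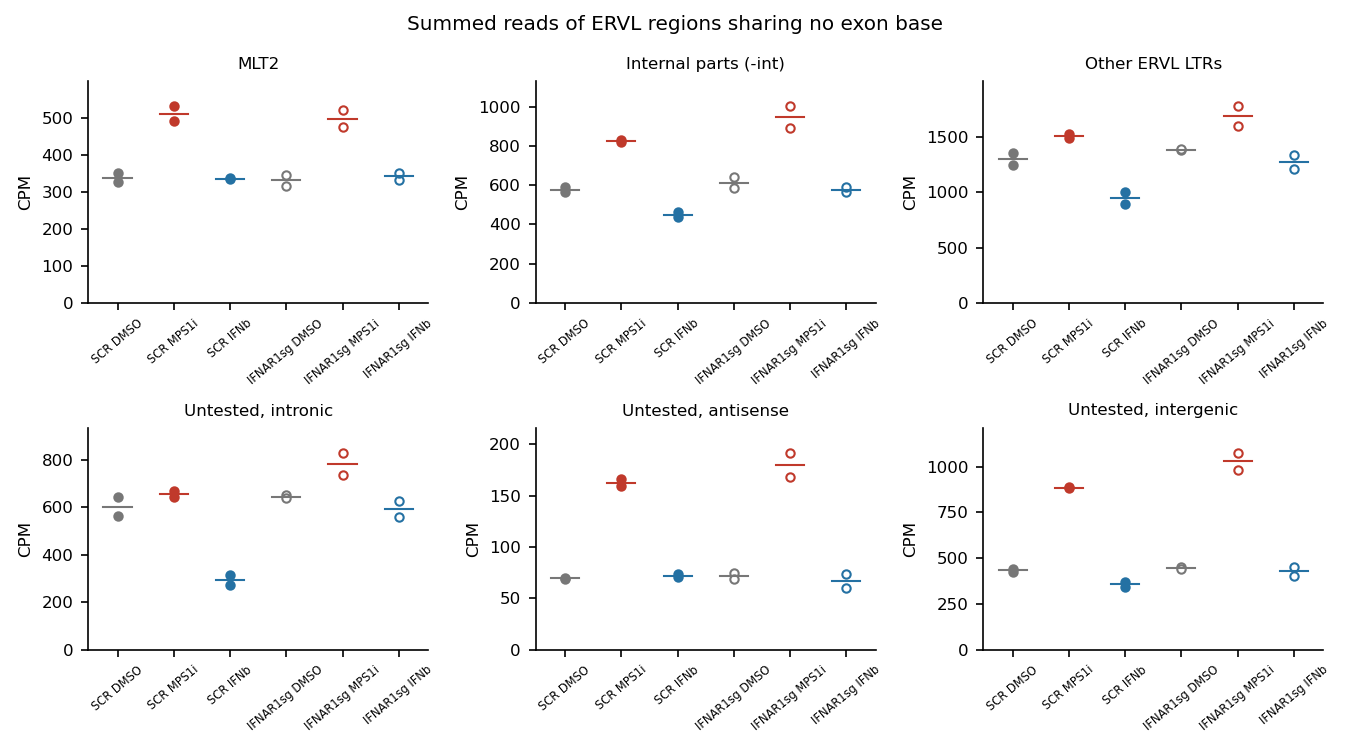
Summed CPM of ERVL regions sharing no exon base (vertical axis) in each of the 12 libraries (points, with the mean of 2 libraries as a line; filled for SCR, open for IFNAR1sg), by kind of element (top) and for untested members by position (bottom). The MPS1i libraries lie above DMSO in every panel, by little for untested intronic members in SCR, whose SCR IFNb libraries are the lowest at 314 and 273 CPM.

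At the level of subfamilies, where reads were summed per repeat name outside exon-sharing regions, 106 of the 121 ERVL names could be tested. With MPS1i 26 of them rose and 1 fell in SCR, where 15.9% of all 1794 repeat names rose and 5.91% fell. In IFNAR1sg 34 rose and 0 fell, where 21.6% rose and 4.24% fell. The median log2 fold change of ERVL names was 0.35 in SCR and 0.44 in IFNAR1sg, against 0.14 and 0.22 over all names. Of the names that rose, 20 did so in both genotypes, which is 76.9% of the SCR list and 58.8% of the IFNAR1sg list. The overlap over all repeat names was not computed, so these shares cannot be read as a trait of ERVL names. Under IFNb in SCR 6 rose and 35 fell, where 6.74% of all names rose and 36.8% fell, so the ERVL share of lower names was near the background. With library totals as the scaling, 4 rose and 61 fell. With IFNb in IFNAR1sg, 0 of 106 rose and 0 fell with edgeR (13 at an unadjusted p under 0.05), where 0% of all names rose and 0.0557% fell. The IFNb effect differed between genotypes for 18 names, 3 of them higher and 15 lower in SCR, where 3.12% and 19.5% of all names were. The MPS1i effect differed for 0 ERVL names in either direction by edgeR (5 at an unadjusted p under 0.05), where 0.0557% and 0% of all names were.

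HERVL-int, the internal part of the element that MLT2 flanks, rose with MPS1i in both genotypes. It stood at 109 and 109 CPM in SCR DMSO and 172 and 164 with MPS1i, and at 126 and 114 and then 233 and 189 CPM in IFNAR1sg. The log2 fold change was 0.62 ± 0.11 (adjusted p = 3e-06) and 0.81 ± 0.11 (6.4e-10). IFNb in SCR left 84.4 and 85.0 CPM, a fall by 0.37 ± 0.12 on the log2 scale (0.009), and in IFNAR1sg 107 and 109. Without the first SCR IFNb library that change was −0.36 (0.052). The MPS1i rise did not rest on 1 copy: the name's 2676 members include 18 tested ones, the most-read holds 5.96% of its reads, and without that region the MPS1i change was 0.68 in SCR and 0.85 in IFNAR1sg. The most-read HERVL-int copy itself, in an intron of the lysosomal mannosidase gene MANBA (chr4:102741289-102743924, minus strand), did not pass the test in any comparison, with 8.83 and 8.91 CPM in SCR DMSO and 8.96 and 5.18 with MPS1i.

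Of the other names that start with HERVL, HERVL18-int rose with MPS1i by 0.97 in SCR (adjusted p = 0.026) and 1.85 in IFNAR1sg (3.8e-07). Without the second SCR DMSO or the first SCR MPS1i library, the SCR change was 0.70 (0.23) or 0.72 (0.26). Its reads are spread over 239 members, of which none was tested singly. HERVL40-int did not pass with MPS1i (0.19 and 0.41) and fell by 0.86 with IFNb in SCR (0.0044), or by 0.70 (0.076) without the first IFNb library. HERVL66-int, with 130 reads, passed in no treatment comparison, and HERVL32-int, with 39, was not tested. HERVL74-int fell with IFNb in SCR by 2.53 ± 0.28 (2.1e-13), but 82.0% of its reads lie in 1 region past ITGB1. Without that region its IFNb change was −1.16 (0.10), and its MPS1i change was 1.09 (0.036) in SCR and 1.24 (0.0086) in IFNAR1sg, where the full sum gave 0.04 and 0.32.

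All 12 MLT2 names were tested. With MPS1i 6 rose and 0 fell in SCR, and 8 rose and 0 fell in IFNAR1sg. For IFNb in SCR the numbers were 2 and 4. The shares over all names were 15.9% (SCR) and 21.6% (IFNAR1sg) higher with MPS1i, and 6.74% higher and 36.8% lower for IFNb in SCR, so the MLT2 share that fell (33.3%) was near the background. MLT2A1 and MLT2A2, the LTRs of the youngest copies, rose by 0.45 ± 0.15 and 0.51 ± 0.13 in SCR and by 0.64 ± 0.14 and 0.53 ± 0.13 in IFNAR1sg. Given IFNb in SCR, these 2 did not pass the test (−0.18 and −0.30). MLT2A1 stood at 40.3 and 41.1 CPM in SCR DMSO and 58.4 and 52.9 with MPS1i, and MLT2A2 at 57.3 and 56.7 and then 81.3 and 80.8, with no overlap. The SCR call of MLT2A1 was lost without the first DMSO (0.43, adjusted p = 0.075), the second DMSO (0.44, 0.064) or the first MPS1i library (0.38, 0.15).

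The MLT2B group varied. MLT2B2 rose with MPS1i by 0.58 (adjusted p = 0.035) in SCR and 0.79 in IFNAR1sg. MLT2B1, MLT2B3 and MLT2B4 rose in IFNAR1sg (0.68, 0.59 and 0.40) and did not pass in SCR (0.35, 0.29 and 0.32). The MPS1i effect did not differ between genotypes for any MLT2 name by edgeR (1 of 12 at an unadjusted p under 0.05). MLT2B1 and MLT2B2 fell with IFNb in SCR, by 1.22 ± 0.20 and 0.81 ± 0.27. MLT2B5, with 157 reads, passed in none. Several of these calls depend on single libraries. The MLT2B2 rise in SCR was lost without any 1 of its 4 libraries (0.44, adjusted p = 0.31, to 0.69, 0.053), and its IFNb fall without the first DMSO (−0.74, 0.058) or first IFNb library (−0.58, 0.16). In IFNAR1sg the rise of MLT2B4 was lost without any 1 of its 4 libraries (0.33, 0.20, to 0.44, 0.056), and that of MLT2B3 without the second DMSO library (0.45, 0.080). Of the MLT2C names, MLT2C1 rose in IFNAR1sg only narrowly past the threshold (0.62, adjusted p = 0.0496), and was lost in 8 settings that left out 1 library, such as the second DMSO library of IFNAR1sg (0.30, 0.53). MLT2C2 fell with IFNb in SCR by 1.18 ± 0.28, with 67.4% of its reads in 1 region.

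MLT2D, MLT2E and MLT2F rose with MPS1i in SCR by 1.39 ± 0.13, 1.33 ± 0.35 and 0.62 ± 0.21. MLT2D stood at 52.0 and 40.9 CPM in SCR DMSO, 132 and 113 with MPS1i and 90.7 and 91.0 with IFNb. MLT2D and MLT2E were the 2 MLT2 names that rose with IFNb in SCR (0.96 ± 0.14 and 1.24 ± 0.38). Both depend on 1 region, which holds 58.9% and 74.7% of their reads. Without it, MLT2D changed with IFNb by −0.70 (adjusted p = 0.0063) and with MPS1i by 0.38 (0.13), and MLT2E by −3.36 (0.013) and 0.06 (0.95). The MPS1i rise of MLT2E was 1.27 (0.051) without the second DMSO and 0.82 (0.27) without the second MPS1i library, and its IFNb rise 0.37 (0.61) without the second IFNb library. That of MLT2F was 0.44 (0.22) without the second DMSO and 0.49 (0.22) without the first MPS1i library. When each subfamily's most-read region was left out, 4 MLT2 names rose and 0 fell with MPS1i in SCR, 8 and 0 in IFNAR1sg, and 0 rose and 6 fell with IFNb in SCR.

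**Figure D2:**
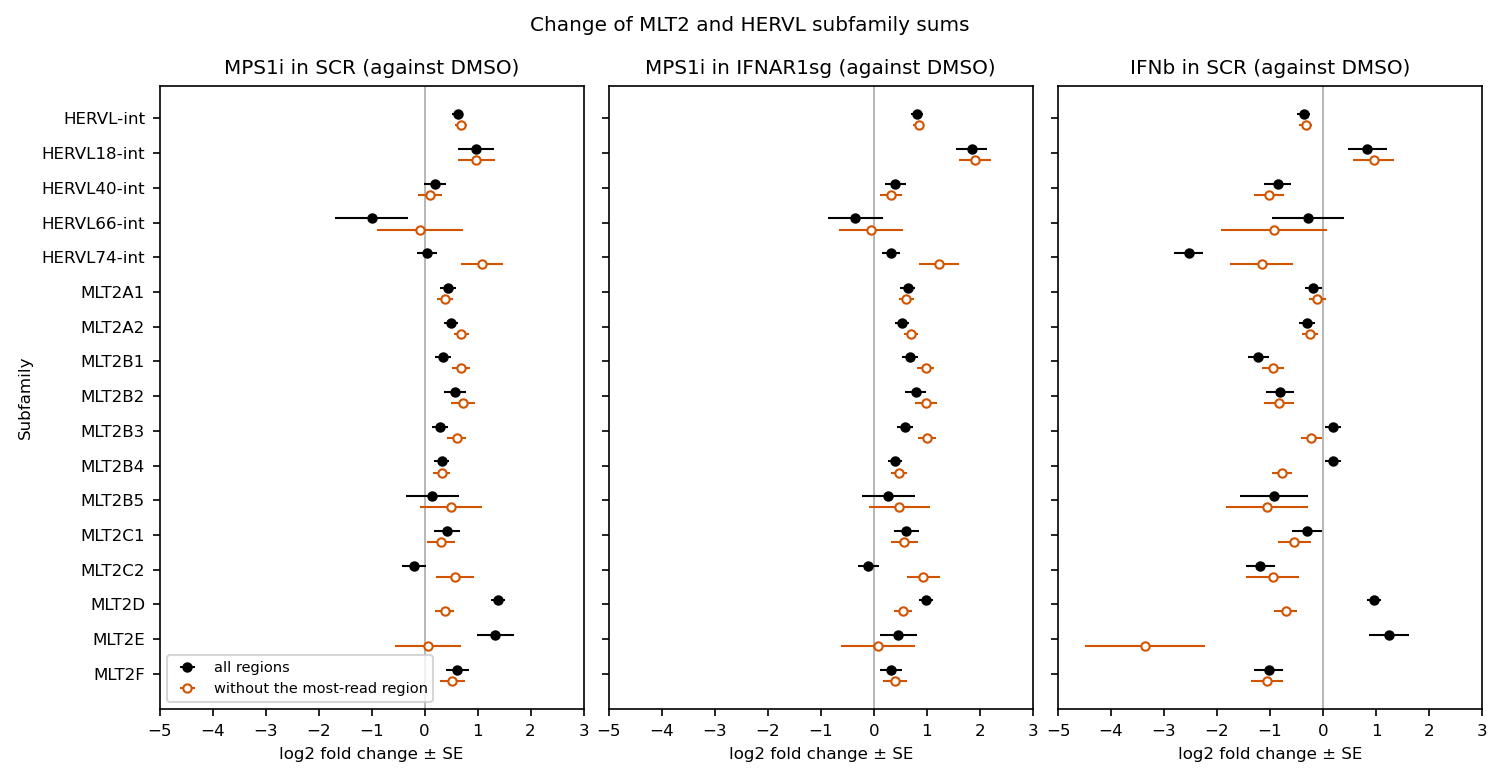
Log2 fold change against DMSO with its SE (horizontal axis) of the MLT2 names and the tested HERVL names (vertical axis) for MPS1i in SCR, MPS1i in IFNAR1sg and IFNb in SCR, with all regions (black) and without each subfamily's most-read region (orange). HERVL-int barely moves between the 2 settings, while MLT2D and MLT2E go from 0.96 and 1.24 to −0.70 and −3.36 with IFNb.

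Among the other internal parts, HERV16-int rose with MPS1i by 1.51 ± 0.25 in SCR and 1.61 ± 0.23 in IFNAR1sg, from 6.33 and 8.71 to 20.1 and 22.5 CPM in SCR. ERVL-B4-int rose by 0.92 ± 0.14 and 0.84 ± 0.13, ERVL-E-int by 0.44 ± 0.10 and 0.57 ± 0.10, and ERV3-16A3_I-int by 0.37 ± 0.10 and 0.48 ± 0.10. Under IFNb in SCR, ERVL-B4-int and ERVL-E-int fell by 0.50 and 0.64, and HERV16-int and ERV3-16A3_I-int did not pass (0.04 and 0.08). Leaving out 1 SCR library ended the call for ERVL-B4-int with IFNb (first DMSO: −0.38, adjusted p = 0.14; second IFNb: −0.16, 0.55), for ERV3-16A3_I-int with MPS1i (first DMSO: 0.30, 0.061; first MPS1i: 0.30, 0.093) and for ERVL-E-int with MPS1i (second DMSO: 0.32, 0.058). In all, 8 of the 18 tested internal parts rose and 0 fell with MPS1i in SCR, 9 and 0 in IFNAR1sg, and 0 rose and 6 fell with IFNb in SCR. These are 44.4% and 50% higher with MPS1i, beside 15.9% and 21.6% of all names, and 33.3% lower with IFNb, beside 36.8%.

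Of the 76 tested other LTRs, 12 rose and 1 fell with MPS1i in SCR, 17 rose and 0 fell in IFNAR1sg, and 4 rose and 25 fell with IFNb in SCR. The shares that rose with MPS1i (15.8% and 22.4%) were near those of all names (15.9% and 21.6%), and the share that fell with IFNb (32.9%) was near 36.8%. The largest rises with MPS1i were in LTR75 and LTR75B. LTR75 stood at 3.33 and 2.71 CPM in SCR DMSO and 15.8 and 9.50 with MPS1i (2.02 ± 0.36), and rose by 1.55 ± 0.34 in IFNAR1sg. LTR75B stood at 0.167 and 0 CPM in SCR DMSO and 2.78 and 3.02 with MPS1i, on 75 reads in all. It may have passed the read filter only through MPS1i libraries, so this rise only describes the name. LTR18B rose in 3 comparisons, by 0.98 with MPS1i and 1.15 with IFNb in SCR and by 1.14 with MPS1i in IFNAR1sg. LTR16 and LTR16E2 rose with MPS1i by 0.87 and 0.79 in SCR and 0.68 and 1.36 in IFNAR1sg. MER21B fell with IFNb in SCR by 1.48 ± 0.17, from 65.0 and 61.4 to 26.0 and 19.2 CPM, and LTR101_Mam by 1.64 ± 0.25. In neither did 1 region hold over 10% of the reads. LTR33A_ was the 1 name that fell with MPS1i in SCR (−0.35 ± 0.11), with 63.9% of its reads in a region past CDK1. Its call was lost without either MPS1i library (−0.35 in both, adjusted p = 0.062 and 0.074), that of LTR18B with MPS1i in SCR without the second DMSO library (0.68, 0.13), and that of LTR16E2 in SCR without the second DMSO (0.40, 0.29) or first MPS1i library (0.69, 0.095). In IFNAR1sg, leaving out the first MPS1i library ended the calls of LTR75 (1.01, 0.078) and LTR16 (0.48, 0.080).

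Among single regions, 27 of the 272 tested members rose and 18 fell with MPS1i in SCR, where 9.55% of all 89111 tested regions rose and 7.97% fell. In IFNAR1sg 20 rose and 15 fell, where 9.4% and 7.87% did. For IFNb in SCR 30 rose and 59 fell, where 15% and 18.1% did. With IFNb in IFNAR1sg 1 rose and 0 fell, where 0.549% and 0.131% did. The member shares in both directions were near those of all regions for MPS1i. The median log2 fold change over the 272 was 0.00, −0.17, −0.56 and −0.11 for MPS1i in SCR, MPS1i in IFNAR1sg, IFNb in SCR and IFNb in IFNAR1sg, and −0.03, 0.01, −0.36 and 0.00 over all regions. With members that had a group at 0 reads set to their bound it was −0.54 for IFNb in SCR (16 such members). With each library's total in place of the scaling factors, which moves the median of all regions by −0.17, −0.32 and −0.13 on the log2 scale, the split was 22 higher and 31 lower for MPS1i in SCR, 19 and 86 for IFNb in SCR, and 18 and 22 for MPS1i in IFNAR1sg. Of the members that rose with MPS1i, 17 rose in both genotypes (63.0% of the SCR list and 85% of the IFNAR1sg list). Of those that fell, 4 did so in both (22.2% and 26.7%), and 0 that rose in SCR fell in IFNAR1sg. The overlap over all tested regions was not computed, so these shares cannot be read as a trait of ERVL members.

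Few members differed between the genotypes with DMSO alone. Between IFNAR1sg and SCR with DMSO, 0 members were higher and 1 lower, where 0.0135% and 0.064% of all regions were. The MPS1i effect differed between genotypes for 0 members higher and 0 lower by edgeR (16 at an unadjusted p under 0.05, with 1 called by DESeq2 and 2 with the replicate block), where 0.0516% and 0.0112% of all regions did. The IFNb effect differed for 24 members, 11 higher in SCR and 13 lower, where 5.11% and 7.06% did. With library totals as the scaling, that split was 5 and 22.

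By position, the shares of intronic members called were close to those of all intronic regions, and other classes varied. With MPS1i in SCR, 9 of 143 intronic members rose and 14 fell, where 4.63% of all intronic regions rose and 11.7% fell, and the median log2 fold change was −0.44 against −0.45. Of 15 antisense members 6 rose and 0 fell, where 16.1% and 1.53% did (median 1.54 against 0.38). Of 92 intergenic members 9 rose and 3 fell, where 14.2% and 3.84% did (0.20 against 0.29). Under IFNb in SCR, 10 intronic members rose and 39 fell, where 5.6% and 25.5% did (−0.99 against −1.05). The antisense members gave 4 higher and 0 lower, where 30.9% and 4.11% were (0.73 against 0.61), and the intergenic ones 12 and 18, where 11.2% and 14% were (−0.29 against −0.13). The 22 exon-sharing members split into 3 higher and 1 lower with MPS1i, where 19.6% and 3.41% of all exon-sharing regions were. With IFNb they split into 4 and 2, where 45.1% and 5.43% were, so their share of higher regions (18.2%) lay below that of the class. Differences between members and their class were not tested.

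Of the single regions, 3 at genes of the interferon response come first. The MER21C region in DDX60L, a helicase-like antiviral gene, lies at chr4:168461046-168461699 on the minus strand in an intron and shares 1 base with an exon. It held 23.7 and 22.7 CPM in SCR DMSO, 196 and 159 with MPS1i and 311 and 288 with IFNb. In IFNAR1sg it held 20.0 and 11.9, 64.4 and 53.2, and 54.0 and 48.1 CPM. Every treated library lay above both DMSO libraries of its genotype, and SCR reached the higher levels. The log2 fold change was 2.93 ± 0.18 with MPS1i and 3.69 ± 0.19 with IFNb in SCR, and 1.90 ± 0.19 and 1.70 ± 0.19 in IFNAR1sg, where it was the 1 member that rose with IFNb (adjusted p = 5.1e-10). The IFNb effect was larger in SCR by 1.99 ± 0.26 (4.4e-08). The DDX60L gene sum without ERVL regions changed by 2.55 and 3.02 in SCR and by 1.55 and 1.12 in IFNAR1sg.

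The most-read MLT2 region is an MLT2D at chr3:146506562-146507173 on the minus strand, in no annotated gene and 8007 bp past the end of PLSCR1, a phospholipid scramblase induced by interferon. It held 21.3 and 18.2 CPM in SCR DMSO, 95.8 and 79.9 with MPS1i, and 75.8 and 73.0 with IFNb. In IFNAR1sg it held 20.9 and 17.8, 52.8 and 53.2, and 30.2 and 34.2 CPM. The treated libraries lay above DMSO in both genotypes, with the IFNb libraries of IFNAR1sg the closest to it. It changed by 2.14 ± 0.19 with MPS1i and 1.91 ± 0.20 with IFNb in SCR, by 1.46 ± 0.19 with MPS1i in IFNAR1sg, and by 0.74 ± 0.20 with IFNb in IFNAR1sg, which did not pass (adjusted p = 0.052). The PLSCR1 sum changed by 2.54, 2.59, 1.38 and 1.52 in the same order. The third region, LTR18B in the guanylate-binding pseudogene GBP1P1 (chr1:89424947-89426095, plus strand), had 1 read in the SCR DMSO libraries together and 57 with IFNb. The ratio of its levels was 119, with a counting interval of 20.5 to 4782. With MPS1i in SCR it had 3 reads, and in IFNAR1sg 0 with DMSO, 7 with MPS1i and 8 with IFNb. It thus passed the read filter only through the SCR IFNb libraries. A rise there was fixed by the filter, so these values only describe the region. GBP1P1 is near-identical in parts to other guanylate-binding genes, so its reads may be split among them.

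Of the tested members, 6 lay in or just past a listed interferon-stimulated gene: the MLT2D past PLSCR1, an LTR40a and 2 MER21C regions in DDX60L, an LTR82A in the DNA sensor gene IFI16, and a MER21C in TRIM25, a ubiquitin ligase of RNA sensing. All 6 rose with MPS1i and with IFNb in SCR, where 9.55% and 15% of all tested regions did. These comparisons share their DMSO libraries. The LTR40a, the other MER21C of DDX60L and the LTR82A had only 53, 55 and 76 reads over all libraries. With so few reads, they passed the read filter only through groups where they are high. A rise in such a group was fixed by the filter, so the count of 6 only describes these regions. The LTR40a and both MER21C regions of DDX60L also share 1 gene. With MPS1i in IFNAR1sg 3 rose, and with IFNb in IFNAR1sg 1 did.

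**Figure D3:**
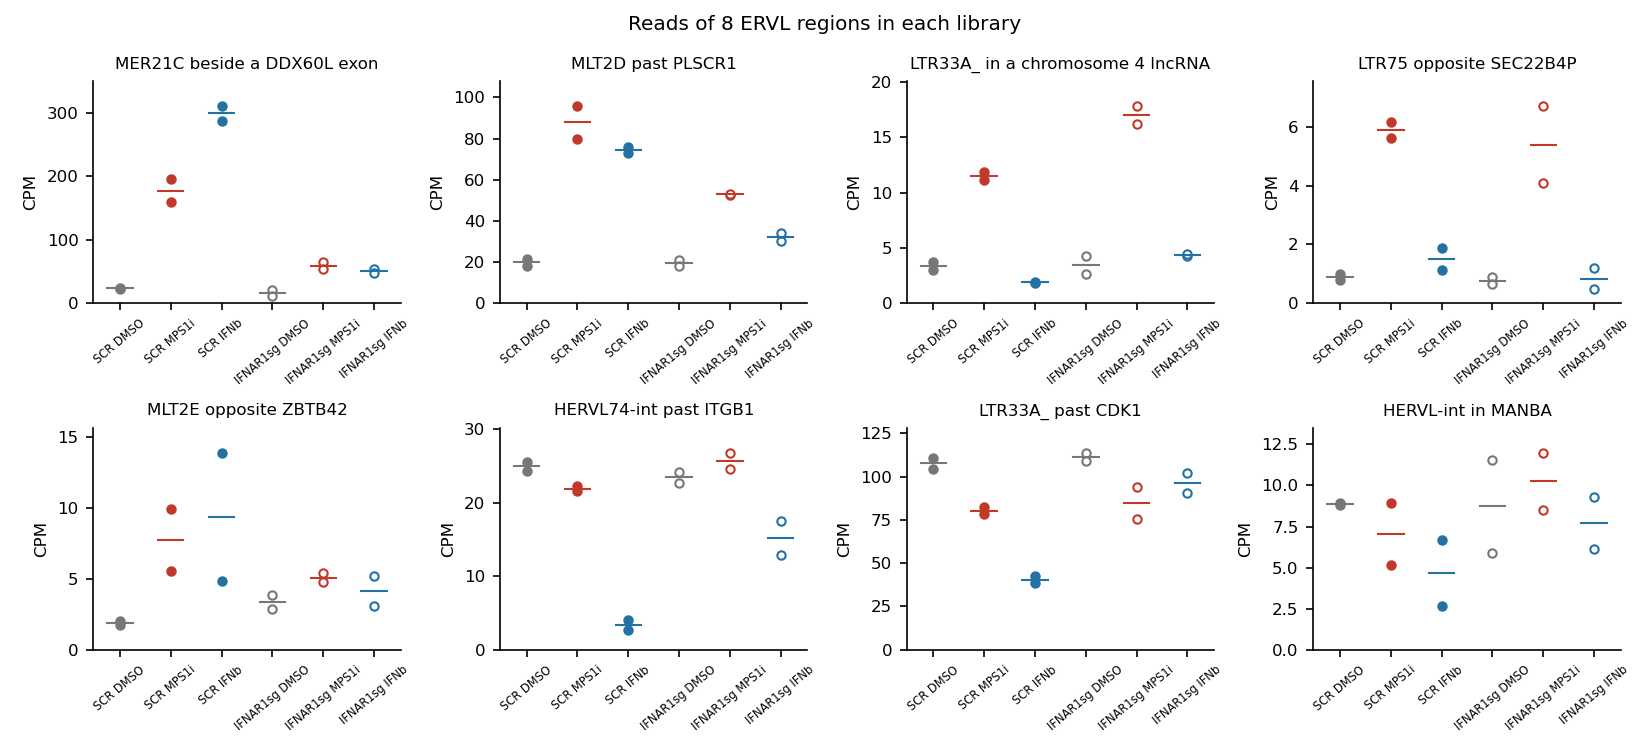
CPM (vertical axis, a separate scale in each panel) of 8 ERVL regions in each of the 12 libraries (points; the line is the mean of 2 libraries; filled for SCR, open for IFNAR1sg). The DDX60L and PLSCR1 regions are higher in both treatments, the LTR33A_ region of chromosome 4 and the LTR75 region with MPS1i in both genotypes, and the ITGB1 and CDK1 regions are lowest with IFNb in SCR. The LTR75 region may have passed the read filter only through the MPS1i libraries.

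Other members passed the test with MPS1i and did not pass it with IFNb, a difference that was not itself tested. An LTR33A_ at chr4:89686711-89687547 (plus strand), in an intron of the long non-coding RNA gene ENSG00000251095, held 3.0 and 3.68 CPM in SCR DMSO and 11.1 and 11.9 with MPS1i, and 2.67 and 4.30 and then 16.2 and 17.8 in IFNAR1sg. It changed by 1.79 ± 0.35 and 2.25 ± 0.33, and with IFNb in SCR by −0.82 (adjusted p = 0.22). An LTR75 opposite the pseudogene SEC22B4P (chr1:146376971-146377938, plus strand) went from 1 and 0.775 to 6.18 and 5.61 CPM in SCR and from 0.889 and 0.637 to 6.71 and 4.09 in IFNAR1sg (2.68 ± 0.57 and 2.81 ± 0.58). This stretch of chromosome 1 holds near-identical copies, so its assignment is uncertain. With DMSO levels this low, the LTR75 region may have passed the read filter only through the MPS1i libraries. A rise there would then be fixed by the filter, so these values only describe the region. An LTR16 opposite ZNF277-AS1 (chr7:112355409-112356269, plus strand) changed by 1.54 ± 0.34 and 1.09 ± 0.32, the second of which was lost without either DMSO library (1.02, 0.090, and 1.13, 0.093) or the first MPS1i library (0.73, 0.22). An LTR79 in NECTIN3-AS1 (chr3:110971089-110971434, minus strand) rose in SCR by 1.08 ± 0.24, from 13.7 and 10.8 to 24.7 and 27.2 CPM. In IFNAR1sg it was −0.08. The difference of its MPS1i effect between genotypes did not pass by edgeR.

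The 2 regions opposite the gene starts printed above rose with both treatments in SCR. The LTR50 opposite HSPB8 (chr12:119178662-119180013, minus strand) held 7.33 and 13.8 CPM in SCR DMSO, 29.4 and 22.9 with MPS1i and 22.3 and 20.7 with IFNb. It changed by 1.31 ± 0.26 and 1.04 ± 0.28, and by 0.98 ± 0.27 with MPS1i in IFNAR1sg. The IFNb call was lost without the first SCR DMSO library (0.65, adjusted p = 0.12), and the IFNAR1sg call without the second DMSO (0.92, 0.10) or second MPS1i library (0.92, 0.056). The MLT2E opposite ZBTB42 (chr14:104800527-104804806, minus strand) held 2.0 and 1.74 CPM in SCR DMSO, 5.56 and 9.93 with MPS1i and 4.83 and 13.9 with IFNb, and 2.89 and 3.82 in IFNAR1sg DMSO. Its changes of 2.06 ± 0.45 and 2.30 ± 0.46 each rest on 1 library: without the second MPS1i library the first was 1.55 (adjusted p = 0.090), and without the second IFNb library the other was 1.35 (0.10).

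The MER68 region in AKR1C2, at chr10:5001681-5003752 on the minus strand, shares 2 bases with an exon and is the most-read member. It held 2056 and 1834 CPM in SCR DMSO, 2470 and 2180 with MPS1i and 4457 and 4089 with IFNb. With IFNb it changed by 1.14 ± 0.11 in SCR and 0.17 in IFNAR1sg (adjusted p = 0.70), a difference of 0.97 ± 0.15. The AKR1C2 sum without it changed by 0.52 ± 0.11 in SCR. AKR1C2 has near-identical relatives beside it, so counts may be split among them. An LTR16C in CMIP (chr16:81702201-81702622, plus strand, 1 exon base) changed by 0.62 ± 0.14 with MPS1i and 1.05 ± 0.14 with IFNb in SCR, whereas the CMIP gene sum went the other way, by −0.95 ± 0.09 (adjusted p = 2.5e-16) and −1.78 ± 0.10 (3.4e-35). On the opposite strand, 16210 reads were counted in overlapping regions, and these reads may lie outside the shared bases. An LTR16A1 far from genes (chr5:120450447-120452056, plus strand) went from 31.2 and 25.2 to 74.0 and 69.2 CPM with IFNb in SCR (1.34 ± 0.20) and stood at 36.8 and 43.5 with IFNb in IFNAR1sg.

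Of the members that fell in SCR, 14 of 18 with MPS1i and 39 of 59 with IFNb were intronic. Over all tested regions that fell, 6059 of 7100 and 13192 of 16090 were. Some other members that fell lay past gene ends. The HERVL74-int 7931 bp past the integrin gene ITGB1 (chr10:32890878-32892388, minus strand) held 24.3 and 25.6 CPM in SCR DMSO, 21.6 and 22.2 with MPS1i and 4.09 and 2.63 with IFNb. Its change with IFNb was −2.88 ± 0.33 in SCR and −0.62 ± 0.23 in IFNAR1sg (adjusted p = 0.29), and the ITGB1 sum changed by −1.12 in SCR. On the opposite strand, 1245 reads were counted in overlapping regions, and these reads may lie outside the shared bases. The LTR33A_ 4893 bp past the cell cycle kinase gene CDK1 (chr10:60799745-60804677, plus strand) held 104 and 111 CPM in SCR DMSO and 42.4 and 38.4 with IFNb (−1.41 ± 0.18), whereas the CDK1 sum changed by 0.05 (0.90). An MLT2D in ATP2C2-AS1 (chr16:84464462-84465998, minus strand) went from 8.16 and 6.78 to 0.372 and 1.5 CPM with IFNb in SCR (−2.97 ± 0.58).

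With MPS1i in SCR, an MLT2B1 in the adhesion receptor gene ADGRA3 (chr4:22372646-22374972, minus strand) changed by −1.85 ± 0.43, from 6.83 and 11.8 to 2.78 and 2.38 CPM, and by −2.61 ± 0.52 with IFNb. An LTR16C in the actin capping gene CAPZA1 (chr1:112660880-112662237, plus strand) changed by −1.85 ± 0.40, and a MER21C in the chromatin gene RBBP4 (chr1:32677492-32678567, plus strand) by −2.35 ± 0.55. All 3 also fell with MPS1i in IFNAR1sg, by 1.10, 1.27 and 1.33. Without the second DMSO library of IFNAR1sg these were −1.08 (0.16), −0.98 (0.20) and −0.98 (0.25), and the calls were also lost without either MPS1i library (−1.02 to −1.48). The ADGRA3 change with MPS1i in SCR was −1.43 (0.051) without the second DMSO library. A MER21B in HELLS, a chromatin remodeller (chr10:94554248-94554600, plus strand, 1 exon base), changed by −1.24 ± 0.27 with MPS1i in IFNAR1sg and −0.87 in SCR, where it was −0.69 (0.14) without the first DMSO and −0.41 (0.46) without the second MPS1i library. An LTR33A_ in LINC01667 (chr21:9804630-9806093, minus strand), a stretch with near-identical copies, changed by −1.01 ± 0.23 in SCR, and −0.82 (0.059) without the second MPS1i library.

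Some falls came from few reads. An LTR50 in FTCDNL1 (chr2:199805931-199807477, minus strand) had 43 reads in the SCR DMSO libraries together and 0 in the IFNb ones, at least 6.87-fold lower with 3 reads set as the floor over the group. An MLT2B4 in the death-associated kinase gene DAPK1 (chr9:87607594-87609138, plus strand) had 50 and 2 reads there, a ratio of 0.0835 with a counting interval of 0.00984 to 0.318. An ERVL-B4-int in the non-coding gene ENSG00000236449 (chr2:174743795-174744674, plus strand) had 28 reads with DMSO and 2 with MPS1i in IFNAR1sg, a ratio of 0.0654 (0.00755 to 0.259), and its call was lost without the second DMSO library (adjusted p = 0.058). The ERV3-16A3_I-int at chr5:25219492-25224774 (minus strand) is the member that was lower in IFNAR1sg than in SCR with DMSO (−1.68, adjusted p = 0.014) and lower with MPS1i and IFNb in SCR (−1.51 and −1.45). Its 2 SCR DMSO libraries held 10.8 and 27.5 CPM. Without the second one these values were weaker, at −0.87, −0.71 and −0.65. On the opposite strand, 31279 reads were counted in regions that overlap this member, and these reads may lie outside the shared bases.

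Compared with the gene they lie in, ERVL members moved along. For 150 tested members inside a gene on its strand, the log2 fold change of the region and of the gene's other reads had a Pearson correlation of 0.61 for MPS1i in SCR, 0.64 for IFNb in SCR and 0.57 for MPS1i in IFNAR1sg (Spearman 0.53, 0.56 and 0.53). These are correlations across regions, given as a description, since regions of 1 gene share its transcript and all share the libraries. Of the called members, 25 of 27, 47 of 52 and 15 of 16 had the same sign as their gene, and for 22, 44 and 13 of these the gene was called too, where 22.3%, 7.95% and 27.1% of all 14385 gene sums rose and 21.8%, 39.2% and 19.7% fell. With IFNb in IFNAR1sg 1 of 1 did, where 0.647% of gene sums rose and 0.647% fell. The Pearson correlation over the 150 was there 0.49 (Spearman 0.15). Of 24 tested members up to 10000 bp past a gene's end, 4 were called with MPS1i in SCR, 3 of them in the gene's direction. With IFNb in SCR 9 were called, 6 of them in its direction. The gene was called too for 3 and 4 of these. Over the 24, the Pearson correlation was 0.63 for MPS1i in SCR and 0.20 for IFNb in SCR (Spearman 0.58 and 0.002). For MPS1i in IFNAR1sg it was 0.37 (Spearman 0.43). The agreement of all tested regions with their genes was not computed. These correlations and counts thus cannot be read as a trait of ERVL members.

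**Figure D4:**
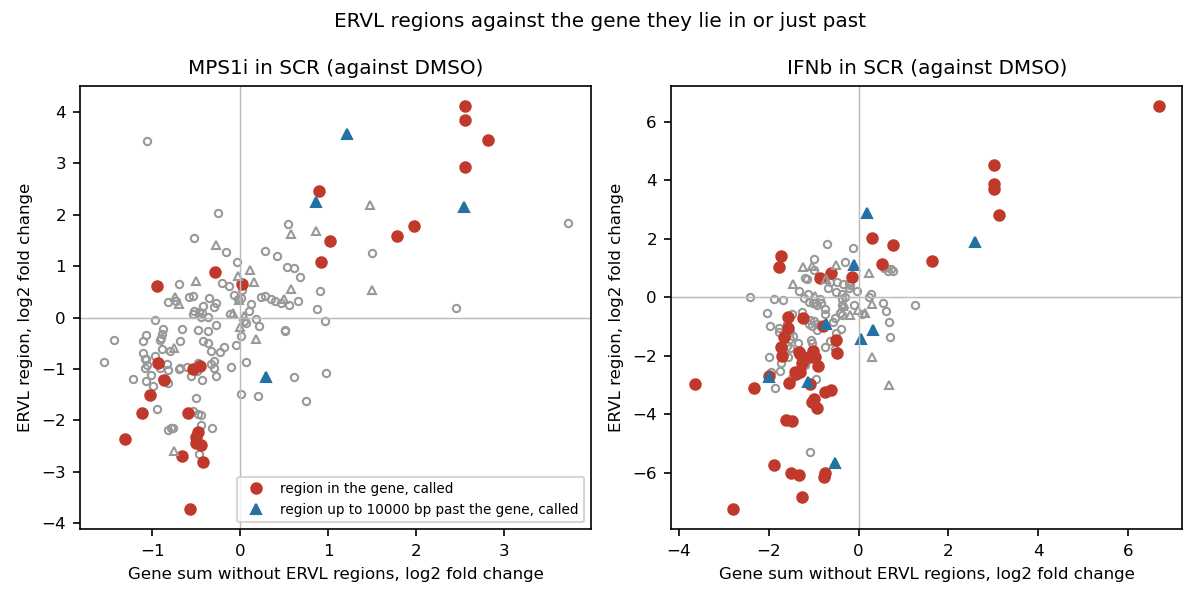
Log2 fold change of ERVL regions (vertical axis) against that of their gene without its ERVL regions (horizontal axis) for MPS1i in SCR (left) and IFNb in SCR (right), for 150 regions in a gene (circles) and 24 up to 10000 bp past one (triangles), filled where the region was called. Most filled points lie where both signs agree; fitted values of regions with a group at 0 reads, such as the LTR50 in FTCDNL1, depend on the fit and are no bounds.

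Members too shallow to test singly, taken as pools of those sharing no exon base, held more reads with MPS1i. The intergenic ones together held 441 and 426 CPM in SCR DMSO and 882 and 889 with MPS1i, and 451 and 439 and then 1077 and 981 in IFNAR1sg. The antisense ones went from 69.8 and 68.9 to 159 and 166 CPM in SCR, and from 74.9 and 68.7 to 192 and 168 in IFNAR1sg. The intronic ones went from 643 and 564 to 670 and 646 in SCR and from 651 and 640 to 832 and 737 in IFNAR1sg. Over all untested regions of the table, intergenic ones held 35741 and 34165 CPM in SCR DMSO and 68000 and 67015 with MPS1i, and antisense ones 11212 and 12391 and then 22106 and 23054. Intronic ones, the largest class, went the other way in SCR, from 173964 and 162374 to 147362 and 144998 CPM, and overlapped in IFNAR1sg (177305 and 181484 with DMSO, 192464 and 165719 with MPS1i). With IFNb in SCR the intronic pool of ERVL members was 314 and 273 CPM and the intergenic one 372 and 345. These sums carry no test.

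The number of ERVL regions with a read moved in the same way. With every library thinned to 3739443 reads, 2705 and 2485 ERVL regions held a read in SCR DMSO, 3626 and 3689 with MPS1i and 1495 and 1490 with IFNb. In IFNAR1sg the numbers were 2721 and 2458, 4362 and 4056, and 2362 and 2670. At full depth they ranged from 1490 to 6491. The ERVL share of all regions with a read was 0.516% and 0.497% in SCR DMSO and 0.681% and 0.669% with MPS1i, and 0.514% and 0.480% and then 0.670% and 0.676% in IFNAR1sg. Intergenic regions as a whole took 17.2% and 17.3% of detected regions in SCR DMSO and 27.1% and 27.2% with MPS1i. Among intergenic regions alone, ERVL made up 1.20% and 1.20% in SCR DMSO and 1.29% and 1.29% with MPS1i, and 1.20% and 1.11% and then 1.33% and 1.31% in IFNAR1sg. These numbers carry no test.

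**Figure D5:**
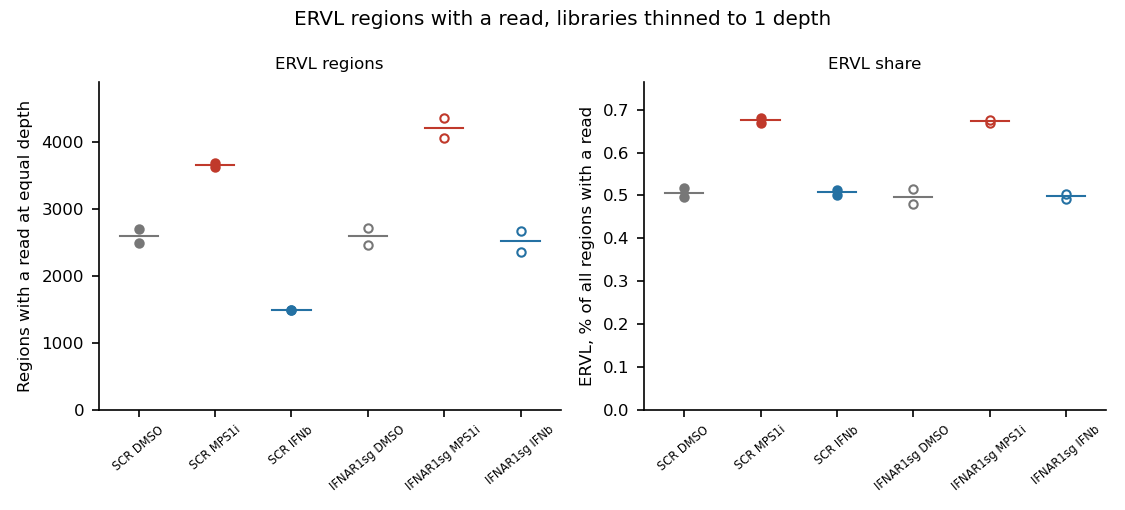
Number of ERVL regions with at least 1 read (left) and their share of all regions with a read in percent (right) in each library after thinning to 3739443 reads (points; the line is the mean of 2 libraries; filled for SCR, open for IFNAR1sg). The 4 MPS1i libraries lie highest in both panels, and the SCR IFNb libraries are lowest in number (1495 and 1490) with a share like that of DMSO.

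Reads on both strands at the same place are 1 way in which double-stranded RNA can form. Here they could be counted only by whole overlapping regions. Of the 272, 109 (40.1%) had at least 100 reads in opposite-strand regions that overlap them by any bases, and 38 had 0. Such reads may lie outside the shared bases. The share over all tested regions was not computed. A repeat name belongs to 1 strand in this table: of 30556 members of the whole family that are covered to at least 80% by 1 opposite-strand region, that region had the same name in 54. Reads from the 2 strands of an ERVL copy are thus mostly not counted under the same name. The region on the other strand may carry another name, several names or none.

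The genes known to activate or silence ERVL elements were examined from a list of 32, of which 25 could be tested. DUX4, ZSCAN4, LEUTX, KDM4E, DUXA and DPPA3, which mark or drive the embryonic programme, and ZFP42, known to bind ERVL LTRs, had too few reads. With MPS1i 0 rose and 13 fell in SCR, and 0 rose and 15 fell in IFNAR1sg, with medians of −0.53 and −0.57, where 21.8% and 19.7% of all gene sums fell. For IFNb in SCR 0 rose and 14 fell (median −0.65), where 39.2% fell, and with IFNb in IFNAR1sg 0 rose and 0 fell by edgeR (0 at an unadjusted p under 0.05). The median over all gene sums was 0.07, 0.16, −0.59 and −0.06 in the order MPS1i in SCR, MPS1i in IFNAR1sg, IFNb in SCR and IFNb in IFNAR1sg. These sums are mostly intronic reads in the J2 fraction and are not levels of messenger RNA.

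Among the genes that fell with MPS1i were DNMT1, which maintains DNA methylation (−1.42 ± 0.24 in SCR and −1.04 ± 0.21 in IFNAR1sg), and UHRF1, which guides it (−1.32 ± 0.18 and −1.28 ± 0.17). SETDB1, a histone methyltransferase that silences endogenous retroviruses, changed by −1.16 ± 0.19 and −1.09 ± 0.17, and its partner ATF7IP by −1.02 ± 0.18 and −0.94 ± 0.16. The heterochromatin protein gene CBX5 changed by −1.15 and −0.98. DNMT1 went from 26.5 and 22.1 CPM in SCR DMSO to 9.89 and 8.42 with MPS1i, without overlap. TRIM28, the scaffold that recruits SETDB1, had a fold change of 0.91 ± 0.62 in SCR (adjusted p = 0.23) at 0.581 to 2.78 CPM and did not pass. With IFNb in SCR, ATF7IP, YY1 (a factor that can bind LTRs) and SETDB1 changed by −1.57, −1.54 and −1.51.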

How the data were processed

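J2-bound RNA was sequenced in 12 libraries, 2 for each of 6 groups. The deposited file holds counts, whole numbers of reads per region and strand, which the authors made with, per the submitters' processing notes, STAR, featureCounts, HOMER, cutadapt, Trim Galore and Trimmomatic on GRCh38/hg38; settings and how reads with several matches were counted are not given in the sources used here. Each region carries 0, 1 or more repeat names and an annotation in the deposited table. The position classes (exon-sharing, intronic, antisense and intergenic) are not taken from it. They, the genes beside regions, the distances past gene ends and the gene sums were made here from GENCODE gene models.

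All 89111 regions passing edgeR's filterByExpr (minimum count 10, minimum total 15, minimum proportion 0.7) were fitted with edgeR 4.0.16 (R 4.3.3): quasi-likelihood test, 1 coefficient for each of 6 groups, library sizes as reads in tested regions with TMM factors. A feature counts as called where its p, adjusted by Benjamini-Hochberg over all features of that fit, is under 0.05, whatever its fold. Sums per repeat name (1794 tested), repeat family (55) and gene (14385) use regions sharing no exon base and keep the same library sizes. CPM are counts per 1e6 of those scaled library sizes. The SE is the fold change divided by the square root of F, which is unreliable near 0. The difference between genotypes is the change in SCR minus that in IFNAR1sg. Intervals and floors (3 reads over a group, 95% for ratios) cover counting error only.

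The named regions and subfamilies follow a rule of smallest p and most reads in each comparison, and MLT2 and HERVL names are all given. The members and lists were chosen with earlier results of these data known. Gene symbols come from RefSeq tables and matched 58252 of 58780 identifiers. The script was tested on simulated data. Alternatives were DESeq2 1.42.0, other scaling, no filter, a replicate block, exon-sharing regions in the sums, sums without the most-read region, and leaving out libraries. No genome was used, so element sequences are not printed.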

Additional observations from a re-analysis of the deposited data

Results flagged for a closer look

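The effect of IFNb differed between SCR and IFNAR1sg, by the test of the difference itself (edgeR, adjusted p under 0.05), for the ERVL family sum and for the subfamilies and regions below; each value is the log2 change in SCR minus that in IFNAR1sg. The family sum gave −0.27.

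Among subfamilies, the change was lower in SCR for HERVL74-int (−1.96), LTR101_Mam (−1.63), MER21B (−1.30), MLT2C2 (−1.28), MLT2B1 (−1.07), MLT2B2 (−0.96), MLT2F (−0.96), LTR33A_ (−0.90) and ERVL-E-int (−0.50). It was higher in SCR for LTR16A1 (0.86) and MLT2D (0.69), whose sums rest on 1 region each.

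Among single regions, the change was higher in SCR for MLT2E opposite ZBTB42 (2.02), MER21C in DDX60L (1.99), MLT2D past PLSCR1 (1.17), LTR16A1 on chromosome 5 (1.13), MER68 in AKR1C2 (0.97) and LTR16C in CMIP (0.65). It was lower for MLT2D in ATP2C2-AS1 (−2.45), HERVL74-int past ITGB1 (−2.26), ERV3-16A3_I-int on chromosome 5 (−1.76) and LTR33A_ past CDK1 (−1.20). For the LTR50 in FTCDNL1 (−7.16) and the MLT2B4 in DAPK1 (−4.46) the fitted value depends on libraries at or near 0 reads and is no bound. Leaving out 1 library ended the call of the difference in at least 1 setting for ERVL-E-int (−0.38 without the first SCR DMSO library), MLT2B2 (−0.74 without the first SCR IFNb library) and MLT2F (−0.75 without the first SCR DMSO library). The same holds for the regions MLT2E (1.07 without the second SCR IFNb library), LTR16A1 (0.89 without the second IFNAR1sg DMSO library), LTR16C in CMIP (0.52 without the first SCR IFNb library), MLT2D in ATP2C2-AS1 (−1.78 without the same library) and ERV3-16A3_I-int (−0.95 without the second SCR DMSO library). The 2 SCR IFNb libraries held the fewest regions with a read (295367 and 296843), and the part of this in the differences was not tested.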

How the results depend on the processing

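With the DESeq2 Wald test, the number of members called was 23 for MPS1i in SCR, 46 for IFNb in SCR, 13 for MPS1i in IFNAR1sg, 2 for IFNb in IFNAR1sg, 0 for IFNAR1sg against SCR in DMSO, 1 for the difference of the MPS1i effect and 12 for that of IFNb. Without a filter on low counts, which tests more regions, it was 24, 36 and 15 for the first 3 and 5 for the difference of the IFNb effect. With exon-sharing regions in the sums, the family sum was 0.60 for IFNb in SCR, 0.14 for MPS1i in IFNAR1sg and 0.058 for IFNb in IFNAR1sg, and MLT2B2 became 0.27 with IFNb in SCR and 0.10 in the difference. Library totals as the scaling gave 65 subfamilies called for IFNb in SCR (4 higher and 61 lower). Without both SCR IFNb libraries, 0 members differed between the genotypes with DMSO. Without the most-read region of each subfamily, with IFNb in SCR LTR16A1 became −1.41, LTR16A2 −0.39, MER54B −1.01, MLT2D −0.70 and MLT2E −3.36, and the differences became −0.97 for LTR16A1 and −0.54 for MLT2D. The cause was not tested beyond what each alternative leaves out.

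Leaving out 1 library at a time gave 15 to 48 members called for MPS1i in SCR, 50 to 91 for IFNb in SCR, 11 to 39 for MPS1i in IFNAR1sg, 1 to 2 for IFNb in IFNAR1sg, 0 to 1 between genotypes with DMSO, and 0 to 2 and 13 to 27 for the differences of the MPS1i and IFNb effects. For subfamilies the ranges were 14 to 29, 26 to 42, 20 to 35 and 0 to 0, and for the family sums 0.29 to 0.41, −0.41 to −0.29, 0.35 to 0.47 and −0.14 to −0.03. The lone library left in a group is assumed to vary like the others. Members called fell by over 1.5 times for MPS1i in SCR without the first DMSO (24) or second MPS1i library (15); for IFNb in SCR without the first DMSO (52) or either IFNb library (50 and 50); and for MPS1i in IFNAR1sg without any 1 of its 4 libraries (22, 11, 23 and 20).

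Same-numbered libraries showed little shared deviation (correlations of −0.0568 to 0.0889). Counting noise lowers such correlations, and each group had only 2 libraries. The values therefore do not show whether the numbers pair samples, which was not tested. With the replicate block, 2 members were called for IFNb in IFNAR1sg and 2 for the difference of the MPS1i effect, and all 57 calls of named regions and 67 of named subfamilies stayed past the threshold. Depth limits single regions most: 19000 members had 1 to 9 reads.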
